A study of Mus musculus with 4 samples.

Results

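The cell cycle genes described here are 45 genes whose transcripts mark DNA replication, the G2 phase or mitosis, together with the G1 cyclins and kinases that precede them. They were chosen by name, with earlier results of these data known, and fall into 8 groups by role. All 45 had UMIs (unique molecular identifiers, each marking 1 captured RNA molecule) in both aliquots on both platforms. They are 45 of the 27998 genes of the Illumina matrix and of the 12561 genes found in both the Illumina and the Nanopore matrices, and 126 of the 31947 isoforms with a Nanopore UMI belong to them. The cells came from E18 C57BL/6 mouse brain, from the sub ventricular zone, hippocampus and cortex together, with no treatment or genotype contrast. One droplet emulsion was divided into aliquots of 190 and 951 cells, and each cDNA was sequenced with Illumina short reads, counted per gene, and with Nanopore long reads, counted per isoform. Both aliquots hold the same cell suspension, so differences between them, and all p-values below, cover technical and cell sampling spread only and not variation between animals. Cells with at least 1400 Illumina genes were kept, which left 186 and 935 cells.

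Dividing cells replicate their DNA in S phase and segregate it in mitosis. Cyclins bind and activate cyclin-dependent kinases at each step, and many genes of one step are transcribed together and shut off when a cell leaves the cycle. In the embryonic brain, radial glia divide along the ventricle, intermediate progenitors derived from them divide a limited number of times, and neurons are postmitotic. The levels in neuron classes are therefore given beside those in progenitor classes.

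Illumina matrices held 1809081 and 8295650 UMIs for the 190 and 951 cell aliquots, and Nanopore matrices held 993220 and 4889148. The median kept cell had 8048.5 and 7551 Illumina UMIs. A total of 13 cell barcode sequences occurred in both aliquots, of which 12 were kept in both, and 3 and 4 cells were called doublets. The 45 genes took 8887 Illumina UMIs in the 190 cell aliquot, or 0.491% of its total, and 29617 in the 951 cell aliquot, or 0.357%. On Nanopore they took 6257 UMIs (0.630%) and 21709 UMIs (0.444%). The share was higher in the 190 cell aliquot on both platforms.

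Cells were grouped by expression with the cell cycle genes left out of the clustering. These genes still entered the naming, since a cluster led mostly by them was given no class name. The resulting classes, named from marker genes, were radial glia-like (73 cells), intermediate progenitor-like (73), immature glutamatergic-like (239), mature glutamatergic-like (283), immature GABAergic-like (166), mature GABAergic-like (141) and Cajal-Retzius-like (17). One of the mature glutamatergic-like clusters rests on 3 of 10 markers. A further cluster of 129 cells, 26 in the 190 and 103 in the 951 cell aliquot, stayed unnamed and is called cell cycle-led. Of its 10 leading genes 7 were cell cycle genes, even though none had entered the clustering. Among the 7, 2810417H13Rik is an S phase gene outside the genes described here. The other leading genes were Ccl4, Ccl3 and C1qc, the last a microglia marker. Scored cell by cell on marker lists, 46 of its cells were highest for GABAergic progenitor markers, 40 for immature GABAergic, 20 for intermediate progenitor, 9 for oligodendrocyte progenitor, 6 for radial glia and 5 for microglia markers. Summed microglia markers were 0 and 457 CPM in this cluster in the 190 and 951 cell aliquots, and their part in its levels was not tested. Its best marker list was immature GABAergic, with 6 of 8 markers raised. Because the cell cycle-led cluster was set apart by these genes, its levels are given as a description and were not tested. The comparisons between the other classes therefore leave out cells of a cluster in which the tested genes were high. Their folds and p-values can depend in part on this rule, as given below for classes from marker scores. The radial glia-like and intermediate progenitor-like classes are the progenitor classes that remained outside the cell cycle-led cluster. They need not hold every such cell. In all, 98 cells scored highest for GABAergic progenitor and 16 for oligodendrocyte progenitor markers. Of these, 46 and 9 lay in the cell cycle-led cluster and the others in named classes.

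All RNA of the 45 genes together made up 15611 and 13734 CPM (counts per 1000000 of all Illumina UMIs of the class) in cell cycle-led cells of the 190 and 951 cell aliquots. Radial glia-like cells followed with 9675 and 7569 CPM, then intermediate progenitor-like cells with 2325 and 2585 CPM, immature GABAergic-like cells with 2109 and 1711 CPM and immature glutamatergic-like cells with 1538 and 1419 CPM. Mature glutamatergic-like cells had 1209 and 1058 CPM, mature GABAergic-like cells 1213 and 1003 CPM, and Cajal-Retzius-like cells 1253 and 830 CPM. The first 5 classes kept this order without overlap between aliquots, while the last 3 overlapped each other. The cell cycle-led cluster and the radial glia-like class together supplied most of these transcripts, with 50.8% and 21.9% of all Illumina UMIs of the 45 genes. Among the 45 genes, 43 were highest in the cell cycle-led cluster, and Cdk2 and Gins2 in radial glia-like cells. With that cluster set aside, 44 were highest in radial glia-like cells, and Cdk4 in intermediate progenitor-like cells.

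**Figure D1:**
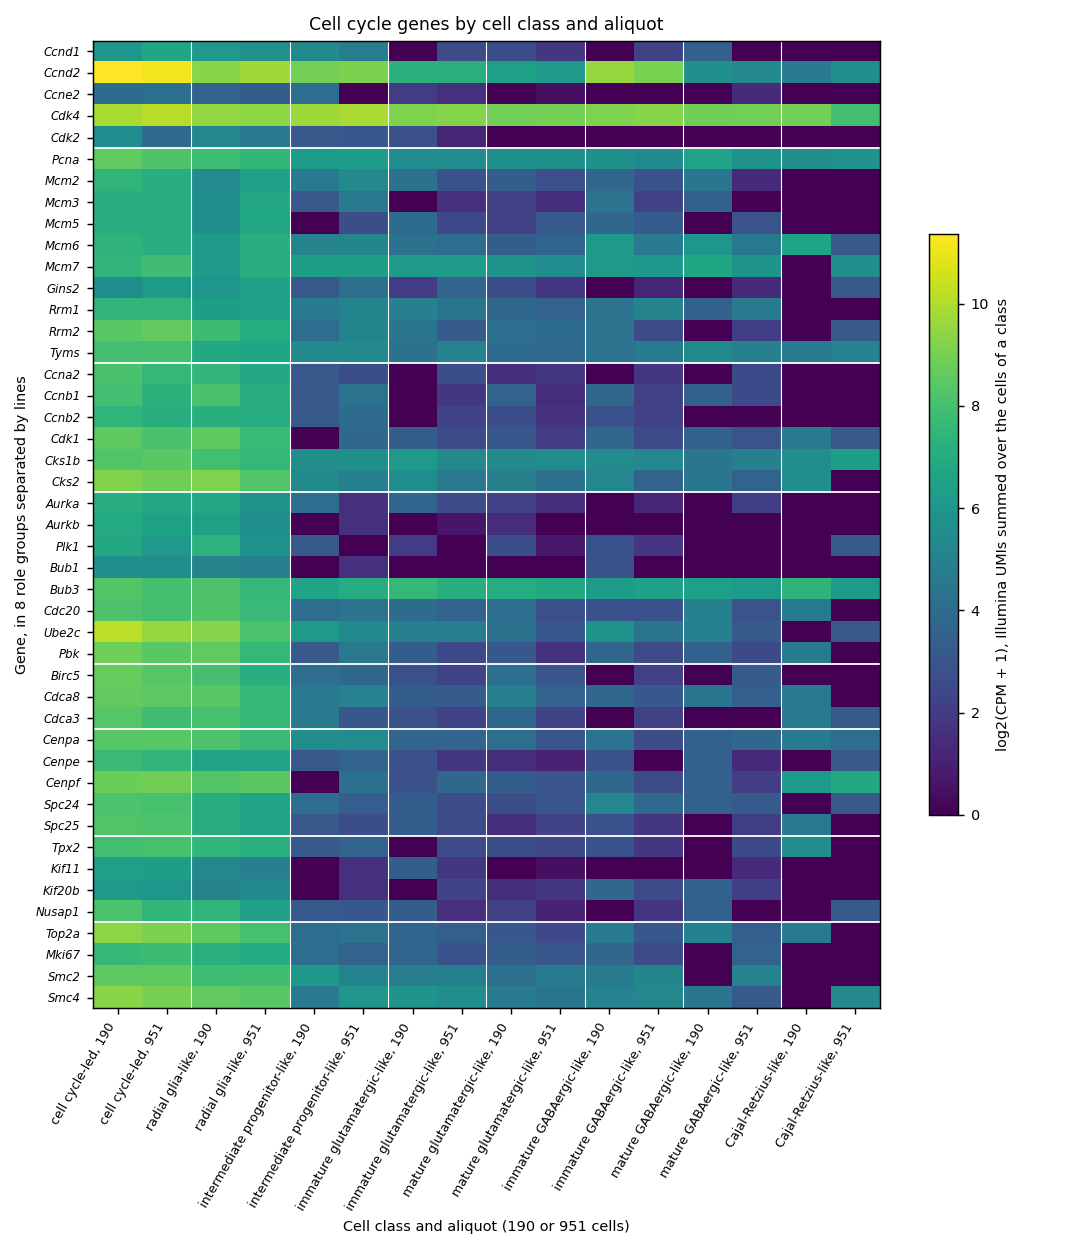
Heat map of Illumina levels, as log2(CPM + 1), of the 45 cell cycle genes (lines, in 8 role groups separated by white lines) in each cell class and aliquot (columns). The 4 leftmost columns, cell cycle-led and radial glia-like cells, are bright for nearly all genes, while Cdk4 and Bub3 stay bright across every class and Ccnd2 is also bright in intermediate progenitor-like and immature GABAergic-like cells.

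The same UMIs were also tallied cell by cell. High tallies in the cell cycle-led cluster follow in part from how it was set apart. To compare cells at 1 depth, each was thinned to 4000 Illumina UMIs and shallower cells were left out. Cell cycle-led cells then showed a median of 23 of the 45 genes (range 1 to 33, 120 cells, 9 left out) and radial glia-like cells a median of 11 (range 0 to 32, 71 cells, 2 left out). Intermediate progenitor-like cells showed a median of 4 (range 1 to 16, 71 cells), and every neuron class a median of 3. At least 10 of the genes were found in 108 of 120 cell cycle-led cells (95% exact binomial interval of the percentage 83.2 to 94.7), in 59.2% of radial glia-like cells (46.8 to 70.7) and in 5.63% of intermediate progenitor-like cells (1.56 to 13.8). The same was seen in 1 of 217 immature glutamatergic-like cells and in 0 of 269 mature glutamatergic-like cells, where the exact upper limit is 1.36%. These intervals cover counting error only. The radial glia-like class was therefore mixed, with cells at or near the neuron level and cells as rich as the cell cycle-led cluster.

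Within radial glia-like cells, the UMIs of the 10 replication genes and of the genes acting later tended to be found together, with a Spearman rho of 0.387 over 71 cells (0.0789 in the 12 cells of the 190 and 0.436 in the 59 cells of the 951 cell aliquot). Within the cell cycle-led cluster rho was -0.188 over 120 cells. These coefficients describe cells of 1 suspension that share a library and a sparse count, and carry no test.

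**Figure D2:**
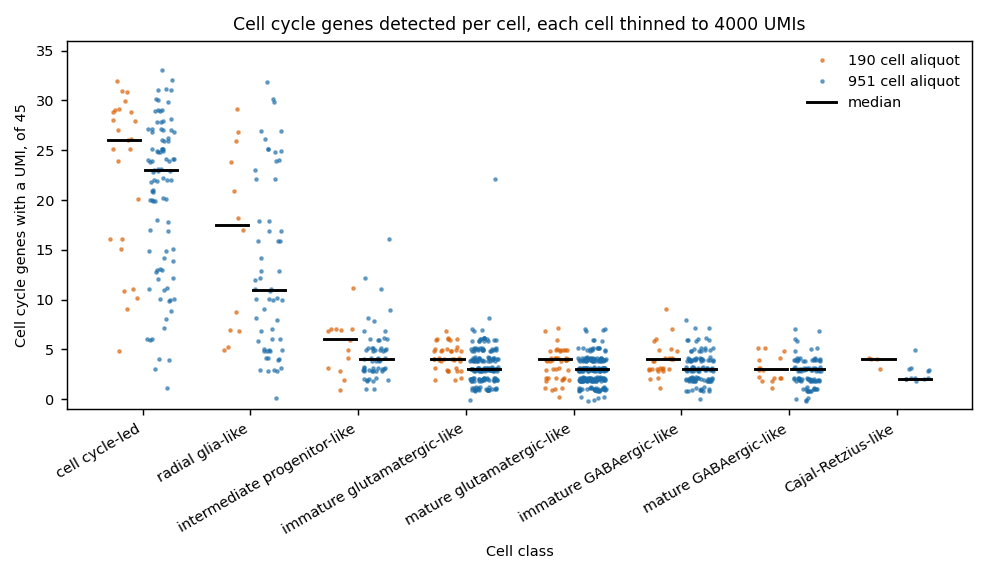
Number of the 45 cell cycle genes with at least 1 UMI (vertical axis) in each cell thinned to 4000 Illumina UMIs, by class and aliquot (orange 190, blue 951; bars are medians). Cell cycle-led cells lie mostly between 10 and 33, radial glia-like cells spread from 0 to 32, and of all neurons 1 immature glutamatergic-like cell with 22 stands apart.

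The upstream sequences of the listed genes were searched for short motifs and are shown in part, to set letters they share beside their levels. RefSeq promoters (GRCm38.p6, 250 bases before to 50 after the annotated start) were at hand for 35 of the 45 genes, with 37 promoters. Searched on both strands, TTTGAA, the CHR element bound by the DREAM and MuvB complexes, occurred in promoters of 19 of the 35 genes and in 17.9% of all 32851 promoters. It was found in 18 of 24 genes acting in G2, mitosis or chromosome structure, in 1 of 9 replication genes (Mcm2) and in 0 of 2 G1 genes. CCAAT, the box bound by NF-Y, occurred in 30 of the 35 genes against 37.4% of all promoters, and both motifs together in 18 of 35 against 6.95%. The E2F letters TTTGGCGC, TTTCGCGC or TTTCCCGC occurred in 6 of the 35 genes, namely Mcm3, Mcm5, Mcm6, Mcm7, Cdk1 and Cdk2, against 1.84% of all promoters. A match is a description of letters and not a binding site, and these motifs were chosen with knowledge of the gene class.

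Shown are 150 bases before to 29 bases after the start, 5′ to 3′ on the gene's strand, for 3 genes of the later groups with CHR and CCAAT matches, 1 replication gene with E2F matches and Cdk4, which varied least between classes and had no match in the stretch shown. Capitals mark the matches of the 3 motifs on either strand, and 2 of the E2F matches of Mcm6 overlap. The windows are chr10:69352884-69353062 (minus strand) for Cdk1, chr4:118437315-118437493 (minus) for Cdc20, chr11:99024161-99024339 (minus) for Top2a, chr1:128359677-128359855 (minus) for Mcm6 and chr10:127063385-127063563 (plus) for Cdk4.
Cdk1: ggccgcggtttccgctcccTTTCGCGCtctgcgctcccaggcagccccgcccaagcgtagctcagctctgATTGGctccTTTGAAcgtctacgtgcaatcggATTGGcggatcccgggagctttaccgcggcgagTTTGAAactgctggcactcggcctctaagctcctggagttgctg
Cdc20: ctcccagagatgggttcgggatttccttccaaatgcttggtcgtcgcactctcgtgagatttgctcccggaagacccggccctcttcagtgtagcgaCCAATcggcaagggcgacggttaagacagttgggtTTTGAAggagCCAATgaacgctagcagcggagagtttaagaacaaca
Top2a: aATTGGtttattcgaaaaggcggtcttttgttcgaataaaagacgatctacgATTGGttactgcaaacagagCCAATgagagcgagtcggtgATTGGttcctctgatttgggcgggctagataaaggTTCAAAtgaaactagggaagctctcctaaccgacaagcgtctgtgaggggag
Mcm6: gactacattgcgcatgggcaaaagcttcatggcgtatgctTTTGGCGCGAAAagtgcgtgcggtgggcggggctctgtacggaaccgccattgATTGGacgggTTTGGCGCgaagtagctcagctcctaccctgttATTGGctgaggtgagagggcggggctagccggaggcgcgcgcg
Cdk4: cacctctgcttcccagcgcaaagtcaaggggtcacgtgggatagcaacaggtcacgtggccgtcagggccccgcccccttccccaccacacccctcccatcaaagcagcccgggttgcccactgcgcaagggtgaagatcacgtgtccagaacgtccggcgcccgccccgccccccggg
In the stretches shown, a CHR match lies 18 bases before the start in Cdc20, 23 bases before it in Top2a, and 71 and 15 bases before it in Cdk1.

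Radial glia-like cells were compared with mature glutamatergic-like cells to ask how far each gene falls between a progenitor class and postmitotic neurons. Of the 44 genes with enough counts to be tested, 43 were higher in radial glia-like cells and 0 lower by edgeR's quasi-likelihood test at an adjusted p under 0.05, against 16.8% of all 8307 genes tested called higher and 17.2% called lower. The count filter spanned all fitted classes, the cell cycle-led cluster among them. Cdk2 and Bub1, with 0 UMIs in mature glutamatergic-like cells, could thus pass through dividing classes, and could then only be called higher. All 44 had an unadjusted p under 0.05 with a positive fold. Their median log2 fold change was 4.57 (4.58 with genes absent from neurons set to their lower bound), against 0.00 over all genes. Cdk4, at log2 0.44 ± 0.18 (SE, adjusted p = 0.052), was not called, but was called with the aliquot as a block (0.41, adjusted p = 0.0011), and Ccne2, a cyclin that activates Cdk2 at S phase entry, was too low to test, with 10 UMIs in radial glia-like and 1 in mature glutamatergic-like cells. In radial glia-like cells summed microglia markers were 0 and 2.28 CPM, with 4 of 6 markers at 0. Endothelial and mural markers were 21.7 and 115 CPM there, with Cldn5 and Flt1 at 0, against 7.37 and 4.75 CPM in mature glutamatergic-like cells. Erythroid markers were 602 and 455 CPM against 669 and 537 CPM in these 2 classes, and mature glutamatergic markers 537 and 277 CPM against 2301 and 2077 CPM. All 12 radial glia markers were present in radial glia-like cells, at 16795 and 19350 CPM against 461 and 397 CPM in mature glutamatergic-like cells.

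Intermediate progenitor-like cells were compared with radial glia-like cells to ask how the genes differ between the 2 progenitor classes. The comparison shares its radial glia-like counts with the previous one. Of 44 genes tested, 38 were lower in intermediate progenitor-like cells and 0 higher (40 at an unadjusted p under 0.05, all lower; 0 higher by DESeq2 too), against 7.86% of all genes called lower and 6.83% higher. The median log2 fold change was -3.28 (-3.29 with sparse genes at their ratio), against -0.01 over all genes. These calls depended on how the classes were drawn. When each cell was given the class of its highest marker score instead, which returned 20 of the cell cycle-led cells to the intermediate progenitor-like class, 0 genes were lower by edgeR, 9 had an unadjusted p under 0.05, and the median was -0.52. In those classes the 45 genes summed to 8509 and 6036 CPM in intermediate progenitor-like cells and to 9193 and 8158 CPM in radial glia-like cells. The values below thus hold for the intermediate progenitor-like cells left outside the cell cycle-led cluster. These cells had 6 of their 7 markers raised, with summed intermediate progenitor markers of 1345 and 1516 CPM against 146 and 209 CPM in radial glia-like cells, and microglia markers of 0 and 1.90 CPM.

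**Figure D3:**
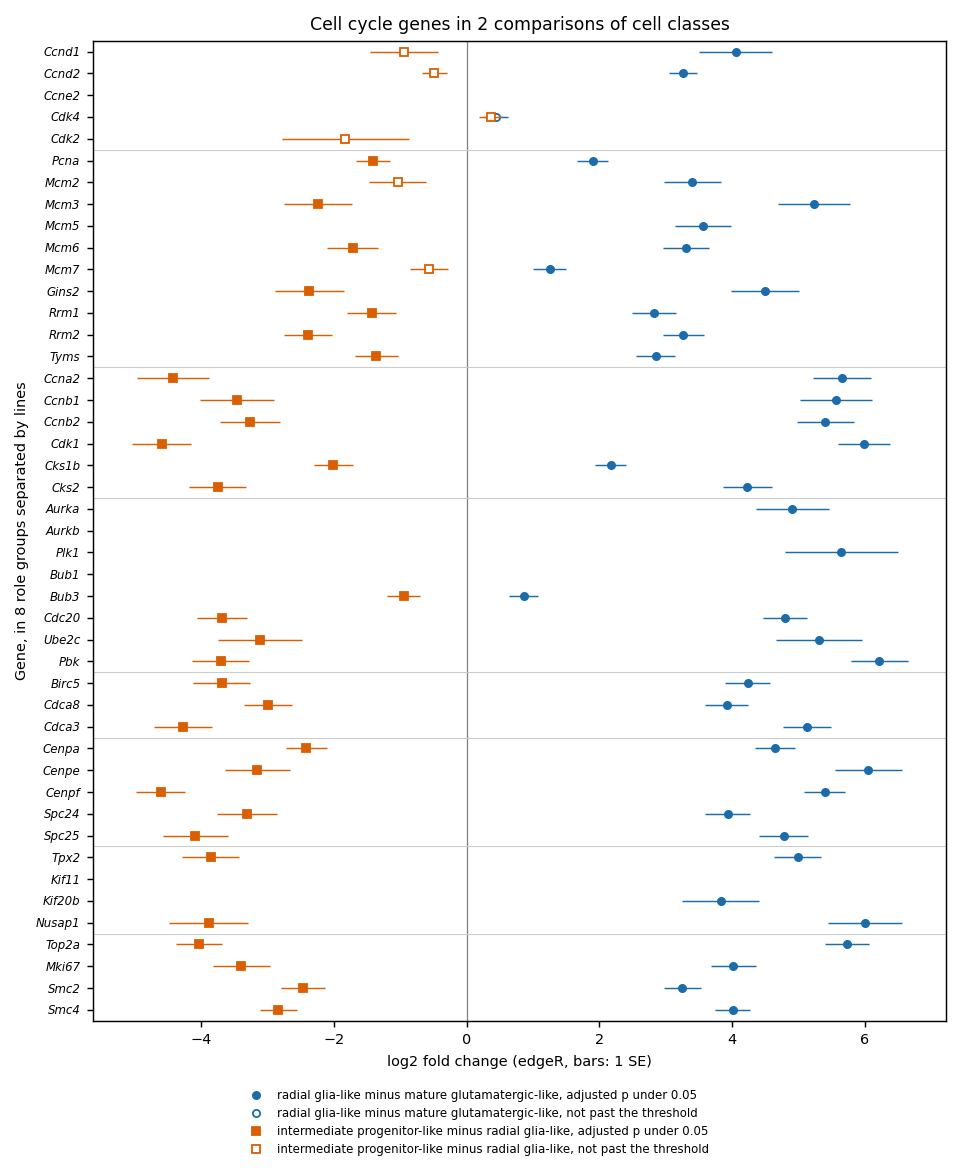
Log2 fold change (edgeR, horizontal bars 1 SE) of each cell cycle gene in 2 comparisons, radial glia-like minus mature glutamatergic-like (blue circles) and intermediate progenitor-like minus radial glia-like (orange squares), with open symbols where the adjusted p was not under 0.05. Blue points lie to the right of 0 for all genes drawn and orange points to the left except Cdk4, and genes with 0 to 3 UMIs in a class are not drawn in that comparison.

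Of 4 G1 cyclins and kinases tested, 3 were higher in radial glia-like than in mature glutamatergic-like cells (median log2 3.66), and 0 were called between intermediate progenitor-like and radial glia-like cells (median -0.72). Cdk4, the kinase partner of D-type cyclins, was present in every class. It stood at 727 and 677 CPM in radial glia-like, 834 and 965 CPM in intermediate progenitor-like and 492 and 501 CPM in mature glutamatergic-like cells, and reached 950 and 1115 CPM in cell cycle-led cells. At 4000 UMIs per cell it was seen in 90.1% of radial glia-like and in 84.4% of mature glutamatergic-like cells. The gap between intermediate progenitor-like and radial glia-like cells, log2 0.36 ± 0.18 (SE, edgeR adjusted p = 0.2), was not called, and was called with the aliquot as a block (0.41, adjusted p = 0.0061). Ccnd2, a D-type cyclin of neural progenitors, stood at 645 and 842 CPM in radial glia-like and 502 and 561 CPM in intermediate progenitor-like cells, against 86.6 and 67.3 CPM in mature glutamatergic-like cells and 2622 and 2264 CPM in cell cycle-led cells. It was higher in radial glia-like than in mature glutamatergic-like cells by log2 3.26 ± 0.21 (SE, edgeR adjusted p = 3.8e-16). Intermediate progenitor-like and radial glia-like cells differed by log2 -0.49 ± 0.19 (adjusted p = 0.077), and by -0.51 (adjusted p = 0.0016) with the aliquot as a block. Ccnd1, the other D-type cyclin listed, had 70.5 and 52.4 CPM in radial glia-like, 40.5 and 26.6 CPM in intermediate progenitor-like and 5.53 and 2.56 CPM in mature glutamatergic-like cells. Cdk2, the kinase of S phase entry, had 27 UMIs in radial glia-like and 0 in mature glutamatergic-like cells, at least 27.7-fold higher when 3 UMIs are taken as the limit for the neurons. As given above, Cdk2 could only be called higher (edgeR adjusted p = 1.2e-05). It was seen in 2.82% of radial glia-like cells and in 0 of 269 mature glutamatergic-like cells.

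All 10 DNA replication genes were higher in radial glia-like than in mature glutamatergic-like cells, with a median log2 fold change of 3.29. In intermediate progenitor-like cells 8 of 10 were lower than in radial glia-like cells, with a median of -1.57. Pcna, the sliding clamp of DNA polymerase, stood at 228 and 183 CPM in radial glia-like, 72.9 and 75.9 CPM in intermediate progenitor-like and 51.6 and 50.8 CPM in mature glutamatergic-like cells. It was higher in radial glia-like than in mature glutamatergic-like cells by log2 1.90 ± 0.23 (SE, edgeR adjusted p = 7.2e-09), and lower in intermediate progenitor-like than in radial glia-like cells by -1.41 ± 0.26 (adjusted p = 1.1e-04). Its neuron level was not zero, with a UMI in 18.2% of thinned mature glutamatergic-like cells against 35.2% of radial glia-like cells. Mcm7, a subunit of the replicative helicase, varied least in the group. It had 75.9 and 139 CPM in radial glia-like, 81.0 and 79.7 CPM in intermediate progenitor-like and 55.3 and 44.3 CPM in mature glutamatergic-like cells, and was higher in radial glia-like than in mature glutamatergic-like cells by log2 1.25 ± 0.25 (adjusted p = 1.1e-04). Intermediate progenitor-like and radial glia-like cells were not told apart for Mcm7, at log2 -0.57 ± 0.29 (adjusted p = 0.2), and the aliquots overlap. Mcm7 shares exon bases on the same strand with Mir25 and Mir93. The other helicase subunits had larger fold changes than Mcm7 between radial glia-like and mature glutamatergic-like cells. Mcm3 stood at 48.8 and 116 CPM in radial glia-like against 3.69 and 1.83 CPM in mature glutamatergic-like cells, log2 5.24 ± 0.54, the largest fold of the group in that comparison, while Mcm2, Mcm5 and Mcm6 differed by log2 3.40, 3.56 and 3.31. Mcm5 had 3 UMIs in intermediate progenitor-like and 105 in radial glia-like cells, a 21.4-fold difference (95% counting interval 7.13 to 106), and Mcm2, at log2 -1.04 ± 0.43 (adjusted p = 0.1), was not called lower there, but was with the aliquot as a block (-1.09, adjusted p = 0.018). Gins2, of the GINS helicase complex, differed between radial glia-like and mature glutamatergic-like cells by log2 4.50, and the nucleotide synthesis genes Rrm1, Rrm2 (ribonucleotide reductase) and Tyms (thymidylate synthase) by 2.83, 3.27 and 2.85.

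The 6 genes of the G2/M cyclins and Cdk1 were all higher in radial glia-like than in mature glutamatergic-like cells (median log2 5.49) and all lower in intermediate progenitor-like than in radial glia-like cells (median -3.61). Cks2, a small subunit that binds cyclin-dependent kinases, stood at 580 and 308 CPM in radial glia-like, 40.5 and 28.5 CPM in intermediate progenitor-like and 29.5 and 18.3 CPM in mature glutamatergic-like cells. The 2 comparisons gave log2 4.23 ± 0.37 (SE, edgeR adjusted p = 1.0e-07) and -3.75 ± 0.43 (adjusted p = 9.6e-06). Its paralog Cks1b had 239 and 187 CPM, 48.6 and 51.2 CPM and 42.4 and 44.3 CPM in the same classes, with log2 fold changes of 2.2 ± 0.24 and -2.01 ± 0.29. Both were still seen in neurons, Cks1b in 15.6% and Cks2 in 7.81% of thinned mature glutamatergic-like cells. The cyclins and their kinase had larger fold changes than Cks1b and Cks2 between radial glia-like and mature glutamatergic-like cells. Cdk1, the kinase that drives mitotic entry, stood at 369 and 198 CPM in radial glia-like and at 7.37 and 2.93 CPM in mature glutamatergic-like cells, log2 5.99 ± 0.39, and was seen in 38.0% and 2.23% of their thinned cells. Ccna2, Ccnb1 and Ccnb2, the A and B type cyclins that activate it, differed by log2 5.66, 5.57 and 5.41. Intermediate progenitor-like cells were lower than radial glia-like cells for Ccna2, Ccnb1, Ccnb2 and Cdk1, by -4.43, -3.46, -3.27 and -4.60.

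All 8 genes of the mitotic kinases, the spindle checkpoint and the anaphase promoting complex were higher in radial glia-like than in mature glutamatergic-like cells (median log2 5.48) and lower in intermediate progenitor-like than in radial glia-like cells (median -3.80). Ube2c, the ubiquitin-conjugating enzyme of that complex, stood at 634 and 282 CPM in radial glia-like, 72.9 and 41.7 CPM in intermediate progenitor-like and 18.4 and 7.68 CPM in mature glutamatergic-like cells. The comparisons gave log2 5.31 ± 0.65 (SE, edgeR adjusted p = 3.2e-04) and -3.12 ± 0.63 (adjusted p = 0.013), and the aliquots differed from each other by more than 1.5 times in each of these classes. Bub3, which binds checkpoint kinases at kinetochores, had the smallest fold, with 293 and 190 CPM in radial glia-like, 97.2 and 129 CPM in intermediate progenitor-like and 129 and 117 CPM in mature glutamatergic-like cells. It was higher in radial glia-like than in mature glutamatergic-like cells by log2 0.86 ± 0.22 (adjusted p = 0.0022), and seen in 39.8% of thinned mature glutamatergic-like cells. Its partner Bub1 was close to absent from neurons, with 32 UMIs in radial glia-like, 1 in intermediate progenitor-like and 0 in mature glutamatergic-like cells, at least 32.9-fold higher in radial glia-like cells than the 3-UMI limit. Aurkb, the kinase of the chromosomal passenger complex, had 61, 1 and 1 UMIs in these classes, a 188-fold ratio to neurons (95% counting interval 32.5 to 7548) and a 37.3-fold ratio to intermediate progenitor-like cells (6.45 to 1499). Plk1, polo-like kinase 1, had 80, 1 and 5 UMIs, with a 49.0-fold ratio between radial glia-like and intermediate progenitor-like cells (8.54 to 1958). Aurka (Aurora kinase A), Cdc20 (an activator of the anaphase promoting complex) and Pbk (a mitotic kinase) were higher in radial glia-like than in mature glutamatergic-like cells by log2 4.91, 4.80 and 6.22. Cdc20 was lower in intermediate progenitor-like than in radial glia-like cells by -3.69 ± 0.38.

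Of the chromosomal passenger and mitotic entry group, all 3 genes changed in both comparisons. Cdca8 (borealin), a chromosomal passenger subunit, stood at 342 and 190 CPM in radial glia-like, 24.3 and 32.2 CPM in intermediate progenitor-like and 29.5 and 11 CPM in mature glutamatergic-like cells, with log2 fold changes of 3.92 ± 0.32 (SE, edgeR adjusted p = 5.0e-12) and -3.0 ± 0.36 (adjusted p = 1.5e-07). Birc5 (survivin), of the same complex, stood at 255 and 143 CPM, 16.2 and 13.3 CPM and 16.6 and 6.95 CPM in these classes, with 4.24 ± 0.34 and -3.69 ± 0.43. Radial glia-like cells lay above both other classes in each aliquot for both genes. Cdca3, a regulator of mitotic entry, differed by log2 5.13 ± 0.36 and -4.28 ± 0.44.

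The 5 centromere and kinetochore genes were all higher in radial glia-like than in mature glutamatergic-like cells (median log2 4.78) and all lower in intermediate progenitor-like than in radial glia-like cells (median -3.30). Cenpf, a large kinetochore protein, stood at 315 and 352 CPM in radial glia-like, 0 and 17.1 CPM in intermediate progenitor-like and 9.22 and 6.95 CPM in mature glutamatergic-like cells. The comparisons gave log2 5.40 ± 0.31 (SE, edgeR adjusted p = 2.1e-17) and -4.61 ± 0.37 (adjusted p = 4.6e-12). Outside the dividing classes it was highest in Cajal-Retzius-like cells, at 70.9 and 120 CPM, from 18 UMIs in 17 cells, a class that was not part of the fit. Cenpa, the histone H3 variant of centromeres, stood at 293 and 211 CPM in radial glia-like, 48.6 and 43.6 CPM in intermediate progenitor-like and 16.6 and 6.95 CPM in mature glutamatergic-like cells, log2 4.65 ± 0.30 and -2.42 ± 0.31. Intermediate progenitor-like cells thus lay between the other classes for Cenpa in both aliquots. Cenpe, a kinetochore motor, and Spc24 and Spc25, subunits of the Ndc80 complex, differed between radial glia-like and mature glutamatergic-like cells by log2 6.06, 3.94 and 4.78.

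The 4 spindle genes had a median log2 fold change of 5.50 between radial glia-like and mature glutamatergic-like cells and of -4.06 between intermediate progenitor-like and radial glia-like cells, with all 4 called in both. Tpx2, a spindle assembly factor that activates Aurora kinase A, stood at 184 and 146 CPM in radial glia-like, 8.10 and 11.4 CPM in intermediate progenitor-like and 5.53 and 4.39 CPM in mature glutamatergic-like cells, log2 4.99 ± 0.35 (SE, edgeR adjusted p = 5.9e-15) and -3.86 ± 0.43 (adjusted p = 5.2e-09). Nusap1, which binds spindle microtubules, stood at 174 and 88.8 CPM, 8.10 and 7.59 CPM and 3.69 and 1.10 CPM in these classes, log2 6.01 ± 0.56 and -3.89 ± 0.60. Both were seen in at least 19.7% of thinned radial glia-like cells and in at most 1.49% of mature glutamatergic-like cells. The motors Kif11 and Kif20b had few UMIs. Kif11 had 33 in radial glia-like, 1 in intermediate progenitor-like and 1 in mature glutamatergic-like cells, a 102-fold ratio to the neurons (95% counting interval 17 to 4139), and Kif20b had 42, 1 and 8.

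The 4 chromosome structure genes were called in both comparisons, with median log2 fold changes of 4.01 and -3.12. Smc4, a core subunit of condensin, stood at 390 and 337 CPM in radial glia-like, 24.3 and 58.8 CPM in intermediate progenitor-like and 24.0 and 20.1 CPM in mature glutamatergic-like cells, log2 4.01 ± 0.26 (SE, edgeR adjusted p = 4.4e-16) and -2.84 ± 0.28 (adjusted p = 2.8e-10). With a UMI in 63.4% of thinned radial glia-like cells against 5.20% of mature glutamatergic-like cells, Smc4 was found in most radial glia-like cells. Top2a, the topoisomerase that untangles replicated DNA, stood at 369 and 262 CPM, 16.2 and 19.0 CPM and 7.37 and 4.75 CPM in these classes, log2 5.74 ± 0.33 (adjusted p = 1.4e-17) and -4.04 ± 0.35 (adjusted p = 1.8e-11). Top2a was seen in 35.2% of thinned radial glia-like cells and in 67.5% of cell cycle-led cells. Smc2, the condensin partner of Smc4, and Mki67, a coat protein of mitotic chromosomes widely used as a division marker, differed between radial glia-like and mature glutamatergic-like cells by log2 3.25 and 4.02. Over all 45 genes the median share of thinned cells with a UMI was 28.2% in radial glia-like, 47.5% in cell cycle-led, 4.23% in intermediate progenitor-like and 2.23% in mature glutamatergic-like cells, whose median cells held 10627, 9571, 8310 and 11352 UMIs before thinning. How much of the neuron values comes from free RNA in droplets was not tested.

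Other S phase and G2/M genes moved in the same direction. They too were left out of the clustering and were counted when the cell cycle-led cluster was set apart. Their calls are therefore no separate support, and their values with classes from marker scores are not given here. Of all 8307 genes tested, 16.8% were higher and 17.2% lower in radial glia-like than in mature glutamatergic-like cells. Between intermediate progenitor-like and radial glia-like cells, 6.83% were higher and 7.86% lower. Of 26 other S phase genes tested, 25 were higher in radial glia-like than in mature glutamatergic-like cells and 17 lower in intermediate progenitor-like than in radial glia-like cells, and of 32 other G2/M genes 31 were higher and 29 lower. Among them Gmnn (geminin, a licensing inhibitor) differed by log2 4.43 ± 0.41 and -2.56 ± 0.44, and Kif2c, a kinetochore motor, by 6.32 ± 0.68 and -5.24 ± 0.85. Of 11 G1/S regulators 7 were higher in the first comparison and 1 lower in the second, the latter near the 7.86% of all genes. Cdk6, the other partner kinase of D-type cyclins, was higher by log2 5.14 ± 0.60 in radial glia-like than in mature glutamatergic-like cells, and E2f5 was higher by 2.86 ± 0.41 in the first and lower by -1.71 ± 0.48 in the second. Genes of cell cycle inhibition and exit were mixed. Of 11 tested, 4 were higher and 2 lower in radial glia-like than in mature glutamatergic-like cells, and 5 were higher and 1 lower in intermediate progenitor-like than in radial glia-like cells. The counts called lower were near the shares over all genes. The 5 higher in intermediate progenitor-like cells were Cdkn1c (log2 1.82 ± 0.33, edgeR adjusted p = 6.2e-05), Cdkn1b (1.29 ± 0.35, adjusted p = 0.0078), Gadd45g (1.63 ± 0.24), Btg2 (1.03 ± 0.24) and Ccng2 (1.57 ± 0.52). Cdkn2c, an inhibitor of Cdk4 and Cdk6, was instead lower there by -2.43 ± 0.56, and higher in radial glia-like than in mature glutamatergic-like cells by 5.12 ± 0.57. Cdkn1c, which encodes p57, was lower in radial glia-like than in mature glutamatergic-like cells by -3.15 ± 0.29.

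The remaining comparisons asked whether traces of these transcripts persist in immature neurons. Between immature and mature glutamatergic-like cells 2 of 44 genes were higher and 0 lower, against 1.44% and 2.09% of all genes, and 9 had an unadjusted p under 0.05. They were Ccnd2, at 151 and 146 CPM against 86.6 and 67.3 CPM (log2 0.89 ± 0.20, SE, edgeR adjusted p = 0.0051), and Smc4, at 57.3 and 46.4 CPM against 24.0 and 20.1 CPM (1.14 ± 0.28, adjusted p = 0.009). Each aliquot of the immature class lay above both aliquots of the mature class for both genes. Bub1, with 0 UMIs in both classes, and Aurkb, with 1 in each, were too sparse for a call. The call on Smc4 was lost with DESeq2 and both calls with classes from marker scores (edgeR adjusted p = 0.052 for Ccnd2 and 0.66 for Smc4). With the aliquot as a block 5 genes were higher, the others being Ube2c (log2 1.49, adjusted p = 3.4e-04), Tyms (0.96, adjusted p = 0.023) and Mcm7 (0.62, adjusted p = 0.029). Neither call was made without the 951 cell aliquot of either class, and 1 was made without the 190 cell aliquot of the immature class.

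Between immature and mature GABAergic-like cells the same 2 genes were higher and 0 lower, against 1.41% and 1.06% of all genes, and 4 had an unadjusted p under 0.05. Many of the 44 genes tested were too sparse here for a call in either direction. Among them were Cdk2 and Aurkb, with 0 UMIs in both classes, Bub1 (1 and 0) and Kif11 (0 and 1). Ccnd2 stood at 762 and 539 CPM in immature GABAergic-like and at 51.8 and 39.1 CPM in mature GABAergic-like cells, log2 4.01 ± 0.25 (SE, edgeR adjusted p = 1.3e-15). Smc4 stood at 31.5 and 37.8 CPM against 20.7 and 8.16 CPM, log2 1.92 ± 0.47 (adjusted p = 0.011), and lost its call with DESeq2 (adjusted p = 0.3). With the aliquot as a block Cdk4 was higher too (log2 0.46, adjusted p = 0.019, against 0.47 and 0.29 without it). Without the 951 cell aliquot of either class, 1 gene was called. The immature GABAergic-like values of Ccnd2 overlapped those of radial glia-like cells, while Top2a in the same cells stood at 25.2 and 7.55 CPM and Cdk1 at 12.6 and 5.04 CPM. With classes from marker scores, which moved 40 cell cycle-led cells into the immature GABAergic-like class, 23 of the genes were higher there. The difference between the immature and mature class was larger for GABAergic-like than for glutamatergic-like cells in Ccnd2 by log2 3.12 ± 0.32 (interaction term in the same edgeR fit, added after seeing the data, adjusted p = 7.4e-09). Ccnd2 was the only one of the 44 genes called by this term, against 1.83% of all genes, and the sparse genes could not be called by it. The 2 GABAergic-like classes differed in leading genes, among them Ebf1, Isl1 and Foxp2 (immature) and Sst, Maf, Nxph1 and Npy (mature). How far a difference in cell subtype enters the Ccnd2 values was not tested.

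The platforms were compared per library, since a Nanopore UMI was counted only when its consensus read matched the exon structure of 1 annotated isoform in full. Nanopore gave 70.4 and 73.3 UMIs of the cell cycle genes per 100 Illumina UMIs in the 190 and 951 cell aliquots, above the 54.9 and 58.9 of all genes. In relative level, 8 of the 45 genes were higher on Nanopore and 3 lower by edgeR, against 20.2% and 30.3% of the 9855 genes tested. Their median log2 difference was 0.50 against -0.04 over all genes. With the aliquot as a block, which pairs the 2 libraries of each cDNA, 32 were higher and 5 lower, against 32.9% and 37.9% of all genes. Without the Illumina library of 1 aliquot or the other, 30 (190 cells left out) or 4 (951 cells left out) were higher, and 18 without the Nanopore library of the 951 cell aliquot.

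Pcna gave 240 (Illumina) and 259 (Nanopore) UMIs in the 190 cell aliquot and 798 and 814 in the 951 cell aliquot, log2 1.01 ± 0.23 (SE, edgeR adjusted p = 0.015) relative to all genes. Cdk4, in the order of aliquots, had 1161 and 5445 UMIs with Illumina against 974 and 4911 with Nanopore, log2 0.74 ± 0.08 (adjusted p = 0.0014), and Cks1b had 209 and 805 against 174 and 704 UMIs, 0.71 ± 0.13 (adjusted p = 0.0073). The others called higher were Rrm2, Ccnb2, Mcm7, Rrm1 and Mcm6, by log2 0.70, 0.66, 0.65, 0.52 and 0.50. Ccnb2 and Mcm6 lay close to the threshold (edgeR adjusted p = 0.046 and 0.049). The 3 genes called lower were Cenpf, Tpx2 and Kif20b. Cenpf had 217 and 874 against 47 and 198 UMIs, log2 -1.25 ± 0.13 (adjusted p = 0.0011). Tpx2 had 121 and 438 against 30 and 117 UMIs, log2 -1.04 ± 0.18 (adjusted p = 0.0058), and Kif20b 33 and 121 against 6 and 25 UMIs, -1.43 ± 0.27 (adjusted p = 0.0072). With DESeq2 the calls on Ccnb2, Rrm1, Mcm6 and Kif20b were lost (adjusted p = 0.078, 0.12, 0.14 and 0.087), and Cdc20 was called higher (0.034). The directions of these 11 genes were the same in both aliquots, where Pcna gave 108 and 102, Cenpf 21.7 and 22.7, Tpx2 24.8 and 26.7 and Kif20b 18.2 and 20.7 Nanopore UMIs per 100 Illumina UMIs.

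Recovery tended to be lower for longer transcripts. Across the 45 genes, Nanopore UMIs per 100 Illumina UMIs and the length of the most abundant isoform had a Spearman rho of -0.483 (-0.458 and -0.496 in the 190 and 951 cell aliquots), a description over genes that share both libraries. The 15 genes with an isoform under 2000 bases gave a median of 78.8 (range 54.9 to 103), the 20 between 2000 and 4000 bases 74.4 (24.4 to 92.2), and the 10 of 4000 bases or more 57.9 (20.1 to 85.1). Not every gene followed this order. Cenpe, at 7910 bases, gave 85.1 and the 10061 base Mki67 gave 52.6, while Cenpf, at 11130 bases, gave 22.5 and Tpx2, at 3654 bases, 26.3.

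**Figure D4:**
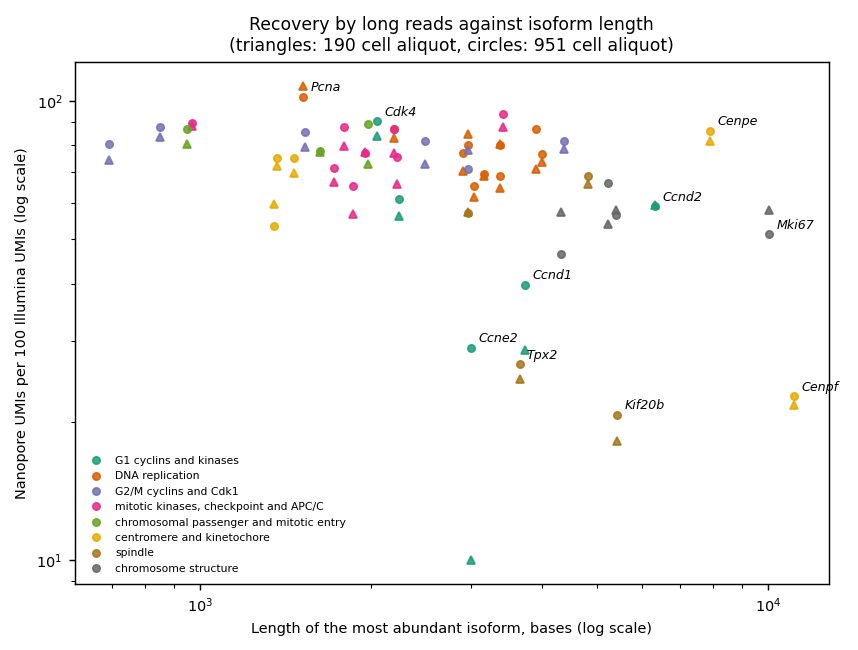
Nanopore UMIs per 100 Illumina UMIs (vertical, log scale) against the length in bases of the most abundant isoform (horizontal, log scale) for the 45 cell cycle genes in the 190 (triangles) and 951 cell (circles) aliquots, coloured by role group. Most genes lie between 50 and 100 at all lengths, and Cenpf, Tpx2 and Kif20b lie near 20 to 27 in both aliquots.

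Most cell cycle genes were read as 1 isoform. In 33 of the 45 genes the most abundant isoform held at least 90% of the Nanopore UMIs, and all UMIs in genes such as Cdk1, Mki67, Cenpe and Cdc20. In 9 genes with at least 100 Nanopore UMIs a second isoform held at least 10%. Shares below are of the gene's Nanopore UMIs over both aliquots with exact binomial 95% intervals, which cover counting error only. Structures are those of Gencode vM21 on GRCm38, while the authors counted isoforms with an earlier Gencode release. All 126 isoforms are annotated in vM21, but differences in structure between the releases were not tested. In 4 of these genes the isoforms have coding sequences of the same length. Smc2-202 (31.9%, 28 to 36) has 3573 coding bases, as has Smc2-201, Spc25-202 (24.7%, 19.9 to 30.1) has 678, as has Spc25-201, and Mcm5-205 (16.9%, 12.3 to 22.3) has 2202, as has Mcm5-201. Tpx2 was the most divided, with Tpx2-201 at 49.0% (40.7 to 57.3), Tpx2-206 at 27.9% (20.8 to 35.9) and Tpx2-207 at 23.1% (16.6 to 30.8), all with 2235 coding bases. In Top2a and Cdca8 the second isoform is a short processed transcript that uses the first junctions of the gene. Top2a-202 (13.3%, 11 to 16) has 632 bases and 2 of the 35 junctions of Top2a-201, and Cdca8-203 (26.1%, 22.8 to 29.7) has 645 bases and 4 of the 9 junctions of Cdca8-202. Their annotated ends lie 29142 and 5159 bases of genome before those of the most abundant isoforms. The authors saw reverse transcription primed at A-rich stretches inside RNAs, among them introns of partly spliced ones. Whether such priming, or the lower recovery of long transcripts, enters these shares was not tested.

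Nusap1, Cenpa and Smc4 differ in coding exons, and those bases are shown on the plus strand of GRCm38, as each gene runs. Nusap1-201 (13.7%, 9.55 to 18.8; 20.0% and 10.7% in the 190 and 951 cell aliquots) lacks the 99 base exon 5 of Nusap1-202, chr2:119633720-119633818, which leaves the frame open with 1182 instead of 1281 coding bases. Cenpa-202 (42.6%, 38.5 to 46.7; 41.7% and 42.8%) carries an extra 137 base exon in its coding region, has 126 instead of 402 coding bases and is annotated as a target of nonsense-mediated decay. The stretch from the exon's start to the stop codon, chr5:30669692-30669735, is shown with the stop in capitals. Smc4-207 (11.3%, 9.01 to 14; 10.7% and 11.5%) has a longer exon 2, and the end of that exon, chr3:69006194-69006224, is shown with the 11 bases that Smc4-201 lacks in capitals. It has 138 instead of 3858 coding bases, a stop TGA within the added bases, and is annotated as a target of nonsense-mediated decay.
Nusap1 exon 5, all in capitals: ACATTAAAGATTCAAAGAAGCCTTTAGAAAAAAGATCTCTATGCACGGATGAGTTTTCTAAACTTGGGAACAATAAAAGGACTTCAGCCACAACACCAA
Cenpa extra exon: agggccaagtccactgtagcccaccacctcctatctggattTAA
Smc4 exon 2 end: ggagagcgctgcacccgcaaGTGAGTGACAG

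**Figure D5:**
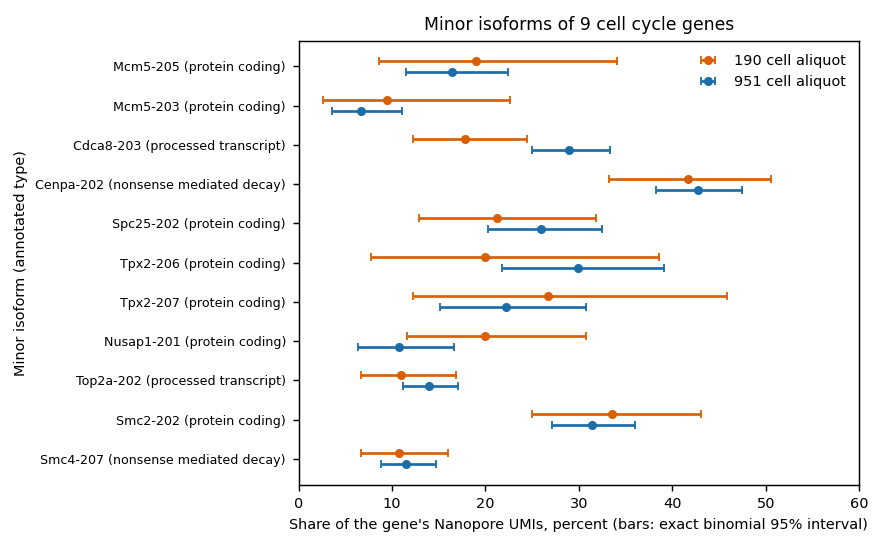
Share of the gene's Nanopore UMIs (percent, points, with exact binomial 95% intervals as bars) held by 11 less abundant isoforms of 9 cell cycle genes in the 190 (orange) and 951 cell (blue) aliquots. Cenpa-202, near 42% in both, is the highest, and the intervals of the 2 aliquots overlap for all isoforms except Cdca8-203, at 17.8% and 29%.

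Isoform use was compared between classes in the 8 genes with 2 isoforms past the filter, Ccnd2, Cdca8, Cenpa, Nusap1, Smc2, Smc4, Spc25 and Top2a. None was called between radial glia-like and mature glutamatergic-like cells (0 of 8 by edgeR's gene-level test and 0 by the Simes test, 2 at an unadjusted p under 0.05), against 17% of the 601 genes tested, nor between intermediate progenitor-like and radial glia-like cells (0 of 8 by both, 0 at an unadjusted p under 0.05), against 4.83%. Depth limits this. Mature glutamatergic-like cells held 0 Nanopore UMIs of Nusap1 and Spc25, so isoform use of these genes could not be compared with that class. They held 1 UMI of Top2a, 4 of Cenpa and 16 of Cdca8, which leaves little room for a call. The 0 of 8 can therefore not be set against the 17% of all genes. The 2 genes under the unadjusted threshold were Ccnd2 and Top2a, and the latter rests on that 1 UMI in the neurons. Cenpa-202 made up 44.1% (37.1 to 51.2) in radial glia-like, 41.6% (36.4 to 47.0) in cell cycle-led and 45% (23.1 to 68.5, 9 of 20 UMIs) in intermediate progenitor-like cells, and Smc2-202 made up 30.5%, 32.7% and 27.3%. Ccnd2-204, a short 2-exon isoform with 468 instead of 867 coding bases, came nearest to the threshold. It made up 6.51% (4.43 to 9.16) of Ccnd2 UMIs in radial glia-like, 6.24% (5.24 to 7.36) in cell cycle-led, 18.1% (9.98 to 28.9, 13 of 72 UMIs) in mature glutamatergic-like and 17.6% (13.7 to 21.9) in immature GABAergic-like cells. The share was lower in radial glia-like than in mature glutamatergic-like cells in both aliquots, at 4.41% and 6.87% against 33.3% (4 of 12 UMIs) and 15% (9 of 60 UMIs). The gene-level test gave an edgeR adjusted p of 0.069, and 0.04 with the aliquot as a block. How far internal priming or the lower recovery of long transcripts enters the Ccnd2-204 share was not tested. On the opposite strand, Ccnd2 overlaps 9330179D12Rik and Gm43126.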

How the data were processed

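UMI counts were used as the authors deposited them, for 4 libraries (2 aliquots on 2 platforms), with no normalization. Per the labels and the study's methods, the authors made the Illumina counts per gene with Cell Ranger 2.0 on mm10. For the Nanopore counts per isoform they aligned reads with minimap2, assigned each read its barcode and UMI with the Illumina reads of the same cells as a guide, built 1 consensus per UMI, and counted it where its exon structure matched a Gencode isoform in full.

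Cells with at least 1400 Illumina genes were kept (1121 cells). The 45 genes and all gene lists were chosen with earlier results of these data known. Cells were clustered with Seurat 5.3.0 without the 319 genes described above (2000 variable genes, 11 dimensions, resolution 0.8) and clusters were named from marker lists. A cluster with genes of these 319 as most of its 10 leading genes was given no class name and left out of the comparisons. Its sums stayed in the count filter and in the fit that set the dispersions. Doublets called by Scrublet (scanpy 1.11.5) were kept. Counts were summed per library, or per aliquot and class, and fitted with edgeR 4.0.16 (TMM scaling, filterByExpr, robust quasi-likelihood F test, R 4.3.3), with Benjamini-Hochberg adjustment over all genes tested at a threshold of 0.05. Isoforms were tested with diffSpliceDGE. Class sums ranged from 96440 to 2734351 UMIs, so the precision was lowest in the 190 cell aliquot. CPM values are not divided by transcript length, so levels of different genes cannot be compared by them. Against a class with 0 UMIs a limit of 3 UMIs over the class was used, and with 1 to 3 UMIs the ratio is given with its 95% counting interval. The scripts were tested on simulated counts.

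Values in full were given for the 2 genes of each role group with the most Illumina UMIs and for up to 3 called genes with the largest fold change in each direction. Others were named by group. The promoters and exons printed were chosen after the matches and structures were seen. Per the labels each aliquot was read on both platforms, and the classes made here divide the cells of each aliquot. Deviations from the group means correlated between platforms (r = 0.562) and between classes (median r = 0.207, 0.13 to 0.329 over 21 pairs), so the aliquot pairs the samples. The main fits, and the p-values given without a block, left this pairing out. Alternatives were the aliquot as a block, DESeq2 1.42.0, no filter on low counts, other class definitions, Nanopore counts and leaving out each library or class sum.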

Additional observations from a re-analysis of the deposited data

Results flagged for a closer look

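Ccnd2 differed between GABAergic-like and glutamatergic-like cells in the gap between the immature and the mature class. The log2 difference between immature and mature cells was larger in GABAergic-like than in glutamatergic-like cells by 3.12 ± 0.32 (SE, edgeR interaction term, adjusted p = 7.4e-09), from 4.01 ± 0.25 against 0.89 ± 0.20. Both aliquots showed this direction. The term was added after seeing the data, and it called 1.83% of the 8307 genes tested. The immature and mature GABAergic-like classes also differed in leading genes (Ebf1, Isl1 and Foxp2 against Sst, Maf, Nxph1 and Npy). How far cell subtype enters this gap was not tested.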

How the results depend on the processing

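With the aliquot as a replicate block, the genes higher on Nanopore went from 8 to 32 and those lower from 3 to 5, the genes higher in intermediate progenitor-like than in radial glia-like cells from 0 to 1, those higher in immature than in mature glutamatergic-like cells from 2 to 5, and the genes with isoforms called between radial glia-like and mature glutamatergic-like cells from 0 to 1, as also with no filter on low counts (1). The block moved no other count of calls by over 1.5 times. With classes from marker scores, chosen after seeing the data, the genes lower in intermediate progenitor-like than in radial glia-like cells went from 38 to 0, those higher in immature than in mature glutamatergic-like cells from 2 to 0, and those higher in immature than in mature GABAergic-like cells from 2 to 23. The same counts for immature glutamatergic-like and GABAergic-like cells were 1 and 1 at resolution 1.2, 4 and 1 with Nanopore counts, and 1 and 1 with DESeq2. Leaving out each replicate gave 4 to 30 genes higher on Nanopore, 0 to 2 higher in immature glutamatergic-like and 1 to 2 higher in immature GABAergic-like cells. Mcm7 changed direction between intermediate progenitor-like and radial glia-like cells, from log2 -0.57 to 0.23 with marker scores and to 0.12 without the 951 cell radial glia-like sum (leaving out each replicate gave -0.79 to 0.12). The causes of these changes were not tested.

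The median share of cells with a UMI was 16.4% in radial glia-like and 30.2% in cell cycle-led cells when thinned to 2000 UMIs. Without thinning it was 46.6%, 64.3%, 9.59% and 7.07% in radial glia-like, cell cycle-led, intermediate progenitor-like and mature glutamatergic-like cells, and 33.3%, 52.0%, 7.69% and 4.65% in the 190 cell aliquot alone. In that aliquot alone Cdca8-203, Nusap1-201 and Tpx2-206 held 17.8%, 20.0% and 20.0%. Of 520 values of named genes under an alternative, 463 kept their direction and their side of the threshold, 43 lost it, 12 gained it and 2 reversed. Depth limits the genes with few UMIs, the Nanopore isoforms in neurons and the Cajal-Retzius-like class.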

Other observations

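Among cell cycle genes outside the 45, 5 of 15 G1/S regulators were lower on Nanopore than on Illumina and 0 higher by edgeR, a share near the 30.3% of all genes called lower. They were E2f3 (log2 -4.74), E2f1 (-4.01), Cdk6 (-3.71), Rb1 (-1.34) and Tfdp2 (-0.83). Of 12 genes of cell cycle inhibition and exit, 6 were higher on Nanopore, by log2 0.46 to 0.55, and 0 lower, against 20.2% and 30.3% of all genes.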
